A study of Phaseolus vulgaris with 36 samples.

Results

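PvIND (Phvul.002G271000) is the common bean homologue of INDEHISCENT and was followed here through 36 pod transcriptomes. It was selected by its identifier, as 1 of 27433 genes in the deposited abundance tables. Of the 36995 transcripts listed, 1 carried that identifier, Phvul.002G271000.1, with a length of 1340 bases. The files pair no names with identifiers, so the name PvIND is taken from what is known of bean genes. Its sequence, exons and position were not analysed here.

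In Arabidopsis, INDEHISCENT encodes a basic helix-loop-helix transcription factor of the valve margin, the strip of cells along which a ripe fruit opens. It acts downstream of the SHATTERPROOF MADS-box genes and is needed for both the separation layer and the lignified layer of the dehiscence zone. In legumes, pods open along the sutures between the valves, and loss of this opening is one of the traits selected under domestication. PvIND was examined in earlier bean work as a candidate for the fibre trait of the pod suture.

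Pods of 4 accessions were sampled at stages R7 (first pods), R8 (pod filling) and R9 (mature pods), with 3 libraries in each of the 12 groups. MIDAS is a domesticated accession labelled indehiscent, whose pods do not open at maturity. SXB405 and ICA Bunsi are domesticated and labelled middle dehiscent, and G12873 is labelled wild-type and full dehiscent. All plants were untreated. With 1 indehiscent and 1 wild accession, effects of dehiscence class, of domestication and of the single accession cannot be told apart. Separate plants are not stated for the 3 libraries of a group, and p-values therefore reflect a spread between libraries that may be technical. The part of the pod that was used is not named either, and in such bulk RNA fewer cells of a type and less RNA per cell cannot be told apart.

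Total estimated counts per library ranged from 2032506 to 15202576. A set of 10 abundant genes that rose and fell together took over 50% of the counts in 8 libraries, which leaves fewer counts for every other gene. These were MIDAS R8 replicate 2, MIDAS R9 replicate 1, SXB405 R9 replicate 1, ICA Bunsi R7 replicate 3, ICA Bunsi R9 replicates 1 and 3, and G12873 R7 replicates 1 and 2. Counts outside the set lay between 275179 and 14904905. Levels are given as CPM, counts scaled to library size after correction by the trimmed mean of M-values (TMM), which brings the bulk of the other genes to a common level. They are also given as deposited TPM, a length-normalised share of all transcripts, which has no such step.

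PvIND was a gene of low counts in nearly every library. It had 597 counts in all 36 libraries together, of which 417 fell in the 9 MIDAS libraries and 180 in the 27 libraries of the other accessions. In MIDAS the counts of replicates 1, 2 and 3 were 28, 16 and 30 for R7, 40, 8 and 19 for R8, and 34, 118 and 124 for R9. No library of the other accessions held more than 19 counts, so every level outside MIDAS rests on a handful of reads. All 36 counts were whole numbers, although the authors' counting can divide a read between transcripts.

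In SXB405 the counts were 18, 19 and 9 in the R7 libraries, 5, 5 and 3 in the R8 libraries, and 2, 11 and 7 in the R9 libraries. In ICA Bunsi they were 15, 6 and 5 for R7, 3, 2 and 7 for R8, and 10, 6 and 3 for R9. In G12873 they were 0, 0 and 13 for R7, 8, 12 and 3 for R8, and 1, 5 and 2 for R9. The zeros in G12873 R7 replicates 1 and 2 come from the 2 libraries with the fewest counts outside the abundant set. By counting error alone, a count of 0 there leaves room for any level below 9.96 CPM in replicate 1 and 3.03 CPM in replicate 2 (3 counts), both of which are above the mean of MIDAS at the same stage.

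On the CPM scale PvIND stood apart in the mature MIDAS pods. The 3 MIDAS R9 libraries had 17.1, 13.6 and 17.2 CPM, a mean of 15.9 ± 2.07 CPM (SD, n = 3). Exact Poisson intervals at 95% for these libraries ran from 11.8 to 23.9, from 11.2 to 16.2 and from 14.3 to 20.5 CPM and overlap each other (they cover counting error only). The MIDAS libraries had 3.42, 1.97 and 2.93 CPM at R7 and 2.46, 1.91 and 1.14 CPM at R8, with means of 2.77 ± 0.736 and 1.84 ± 0.662 CPM. Within MIDAS, R9 did not overlap the earlier stages, and R7 and R8 overlapped each other.

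SXB405 had 0.738 ± 0.152, 0.353 ± 0.122 and 0.655 ± 0.424 CPM at R7, R8 and R9 (SD, n = 3 in each group). ICA Bunsi had 1.18 ± 0.465, 0.344 ± 0.219 and 2.67 ± 2.13 CPM. Its R9 libraries lay far apart, at 4.72, 0.478 and 2.81 CPM, and the highest and the middle value are those of replicates 1 and 3, 2 of the libraries in which the abundant set took over 50%. G12873 had 0.258 ± 0.446, 0.658 ± 0.315 and 0.313 ± 0.175 CPM. The highest single value of PvIND was 1.12 CPM among the 9 SXB405 libraries and 0.924 CPM among the 9 of G12873, and the lowest among the 9 of MIDAS was 1.14 CPM.

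Ordered by mean CPM, MIDAS R9 came first and MIDAS R7 next, and this was the one step in the order that was larger than the SD of both groups and had no overlap of libraries. After them came ICA Bunsi R9, MIDAS R8, ICA Bunsi R7, SXB405 R7, G12873 R8, SXB405 R9, SXB405 R8, ICA Bunsi R8, G12873 R9 and G12873 R7. The other 10 of the 11 neighbouring pairs in this order differed by less than the larger SD of the pair, and their libraries overlapped.

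**Figure D1:**
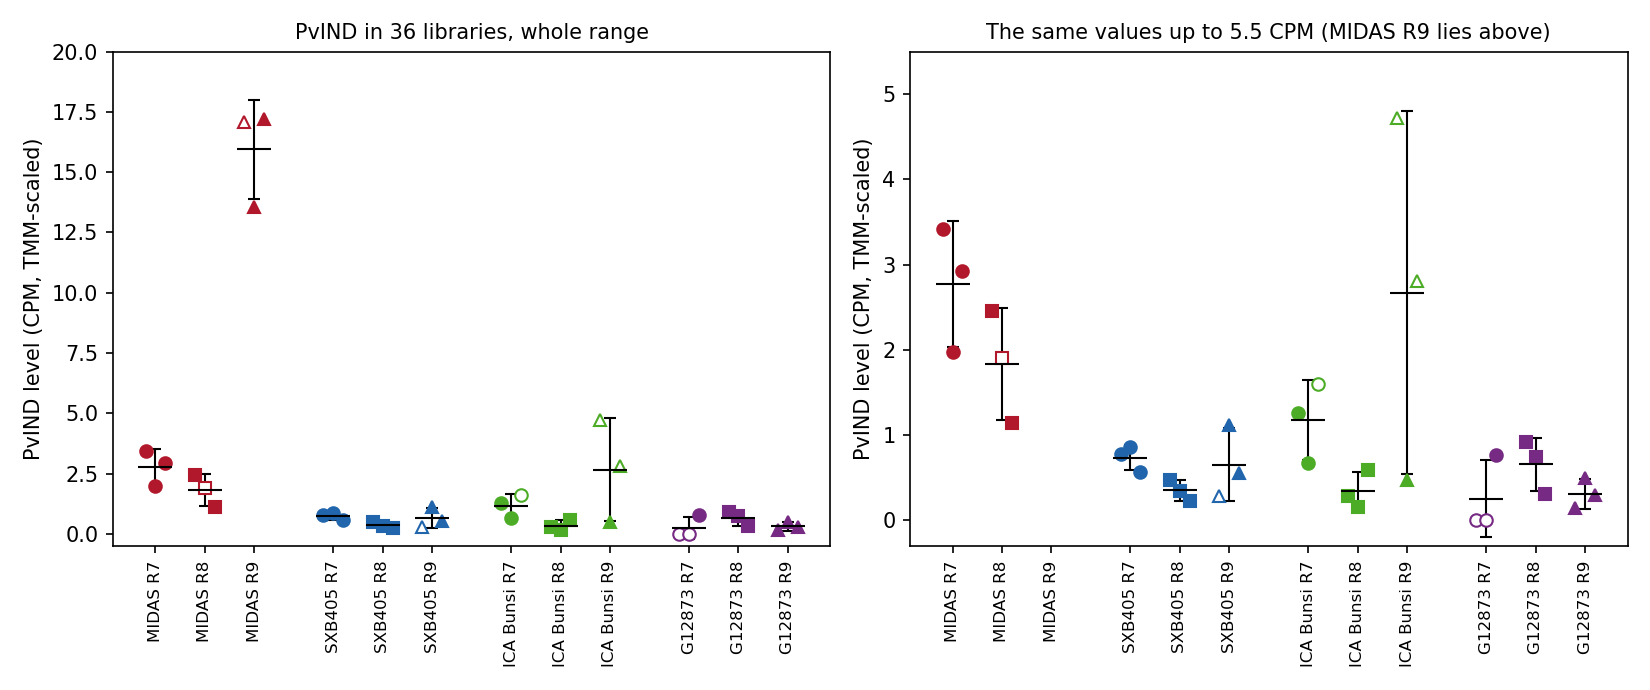
PvIND level in each of the 36 libraries in TMM-scaled CPM (vertical axis), by accession and stage (horizontal axis), over the whole range on the left and up to 5.5 CPM on the right. Horizontal bars are group means and whiskers the SD of 3 libraries, and open symbols are the 8 libraries in which the abundant set took over 50% of counts. The 3 MIDAS R9 libraries sit between 13.6 and 17.2 CPM, above all others, and ICA Bunsi R9 spreads from 0.478 to 4.72 CPM.

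TPM divides by transcript length, so it allows a comparison with other genes. In MIDAS R9 the level was 9.16 ± 5.38 TPM (SD, n = 3), and 74.0% of all genes had a lower mean TPM in that group. At R7 and R8 of MIDAS the share of genes below PvIND was 42.9% and 39.8%. In the 9 groups of the other accessions it lay between 26.3% and 37.9%. All these shares count genes with a mean of 0 TPM as lower. In MIDAS R9, 22399 of the 27433 genes were over 0 TPM. In the groups of the other accessions 22370 (ICA Bunsi R9) to 24264 (SXB405 R7) were.

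The TPM scale kept MIDAS above the other accessions at R9, but not in every library at R8. Within MIDAS it did not keep the gap between R9 and R7, while the R9 libraries stayed above those of R8. The MIDAS R9 libraries had 2.98, 12.8 and 11.7 TPM, against at most 1.00 TPM in the 9 R9 libraries of the other accessions. The 3 MIDAS R7 libraries had 2.59, 2.06 and 3.06 TPM, so MIDAS R9 replicate 1 fell within the R7 range. In that library the abundant set took 62.0% of the counts. At R8 the MIDAS libraries had 2.76, 0.512 and 1.36 TPM, against up to 0.438 TPM in SXB405, 0.690 TPM in ICA Bunsi and 1.03 TPM in G12873, so MIDAS R8 replicate 2, another library with the set over 50%, lay within the range of ICA Bunsi and of G12873. Scaled to the counts outside the set alone, the MIDAS R9 libraries had 20.3, 17.5 and 23.8 CPM and the MIDAS R7 libraries 5.13, 3.17 and 4.74 CPM, with no overlap.

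**Figure D2:**
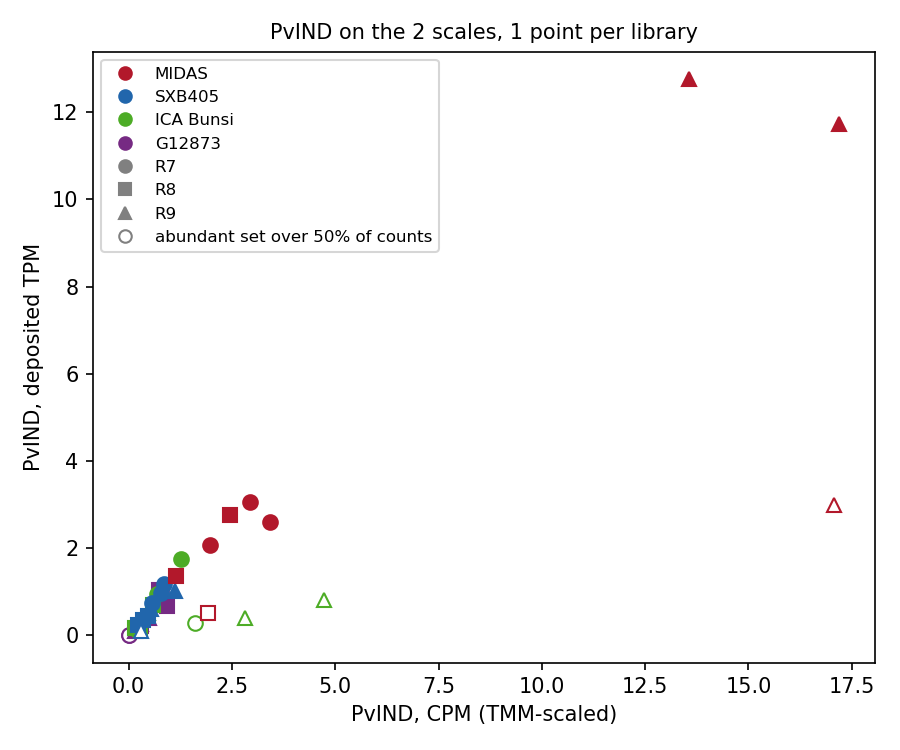
PvIND in each of the 36 libraries, as TMM-scaled CPM (horizontal axis) and as deposited TPM (vertical axis). Colours are accessions, shapes are stages, and open symbols are the 8 libraries in which the abundant set took over 50% of counts. MIDAS R9 replicate 1 has 17.1 CPM and 2.98 TPM, to the right of the line on which most libraries fall.

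The accessions were compared in pairs within each stage, 6 pairs at each of 3 stages and 18 tests in all, with edgeR's quasi-likelihood test fitted over all 36 libraries. Calls required a change of at least 2-fold and an adjusted p under 0.05, by Benjamini-Hochberg over the 20966 genes tested. PvIND was called higher in MIDAS in 8 of the 9 pairs with another accession. On the CPM scale the libraries of MIDAS and of the other accession did not overlap in any of these 9 pairs. In these pairs 8.12% to 15.8% of the genes tested were called higher. The share of all genes without overlap is not given here, so how unusual the separation is cannot be read from it. On the TPM scale the libraries overlapped in 2 of the 9, those with ICA Bunsi and with G12873 at R8, and at R7 the separation from G12873 includes its 2 counts of 0. The 3 pairs with MIDAS at a stage share the MIDAS libraries. Of the 9 pairs without MIDAS, 1 was called, and in none of them were the libraries separate.

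At R7, PvIND was higher in MIDAS than in SXB405 and than in G12873. The log2 fold change of MIDAS over SXB405 was 1.88 (SE 0.54, adjusted p = 0.00937), in a comparison in which 10.2% of the genes tested were called higher. Over G12873 it was 2.09 (SE 0.73, adjusted p = 0.0244), where 15.8% were called higher. Over ICA Bunsi it was 1.30 (SE 0.57, adjusted p = 0.0842) and not called, where 12.4% of genes were called higher. The groups did not overlap all the same: MIDAS had 1.97 to 3.42 CPM and ICA Bunsi 0.677 to 1.60 CPM.

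Both calls at R7 depended on settings. Over SXB405 the call was lost on transcripts in place of gene sums (1.87, adjusted p = 0.0776) and on total counts without TMM scaling (1.69, adjusted p = 0.332). Over G12873 the call was lost without G12873 R7 replicate 2 (1.88, adjusted p = 0.0691), without MIDAS R7 replicate 1 (1.92, adjusted p = 0.0609), and without G12873 R7 replicate 3 (adjusted p = 0.0533), which leaves that group with no count of the gene and its change with no measured size. Leaving out the 8 libraries in which the abundant set took over 50% leaves 1 library in G12873 R7 (replicate 3) and 1 in ICA Bunsi R9 (replicate 2), each assumed to vary like the other groups. Without the 8 libraries the log2 fold change was 1.81 (adjusted p = 0.051), and MIDAS over ICA Bunsi passed the test at 1.48 (adjusted p = 0.0326).

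At R8, PvIND was higher in MIDAS than in each of the other accessions. MIDAS over SXB405 gave a log2 fold change of 2.35 (SE 0.61, adjusted p = 0.00349, with 14.6% of genes called higher). The value over ICA Bunsi was 2.36 (SE 0.62, adjusted p = 0.00616, with 8.26% called higher), and that over G12873 was 1.45 (SE 0.58, adjusted p = 0.046, with 15.6% called higher). The libraries had 1.14 to 2.46 CPM in MIDAS, 0.231 to 0.476 CPM in SXB405, 0.163 to 0.587 CPM in ICA Bunsi and 0.311 to 0.924 CPM in G12873.

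The R8 call over G12873 lay close to the threshold. It was lost without MIDAS R8 replicate 1 (1.11, adjusted p = 0.209), MIDAS R8 replicate 2 (1.45, adjusted p = 0.072), G12873 R8 replicate 2 (1.56, adjusted p = 0.0891) or G12873 R8 replicate 3 (1.14, adjusted p = 0.166), and with DESeq2 (1.49, adjusted p = 0.063). The call over ICA Bunsi was lost without MIDAS R8 replicate 1 (2.02, adjusted p = 0.0509). On total counts without TMM scaling none of the 3 was called, with 2.20 over SXB405 (adjusted p = 0.103), 2.25 over ICA Bunsi (adjusted p = 0.143) and 1.29 over G12873 (adjusted p = 0.415).

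At R9 the differences were largest. PvIND was 23.3-fold higher in MIDAS than in SXB405, a log2 fold change of 4.54 (SE 0.59, adjusted p = 1.18e-06), where 11.4% of genes were called higher. It was 7.52-fold higher than in ICA Bunsi, at 2.91 (SE 0.61, adjusted p = 0.000864, with 8.12% of genes called higher). It was 46.4-fold higher than in G12873, at 5.54 (SE 0.65, adjusted p = 1.99e-07, with 10.4% of genes called higher). The level was 13.6 to 17.2 CPM in MIDAS, against 0.291 to 1.12 CPM in SXB405, 0.478 to 4.72 CPM in ICA Bunsi and 0.147 to 0.496 CPM in G12873.

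These 3 calls held under each of the 12 alternatives run for them and with each library of the pair left out in turn. Their log2 fold changes lay between 4.26 and 5.12 over SXB405, between 2.01 and 4.14 over ICA Bunsi and between 5.22 and 6.09 over G12873 with 1 library left out. The value over ICA Bunsi was 4.14 without ICA Bunsi R9 replicate 1, 2.01 without its replicate 2, and 4.97 without the 8 libraries, where replicate 2 is the one ICA Bunsi R9 library left.

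**Figure D3:**
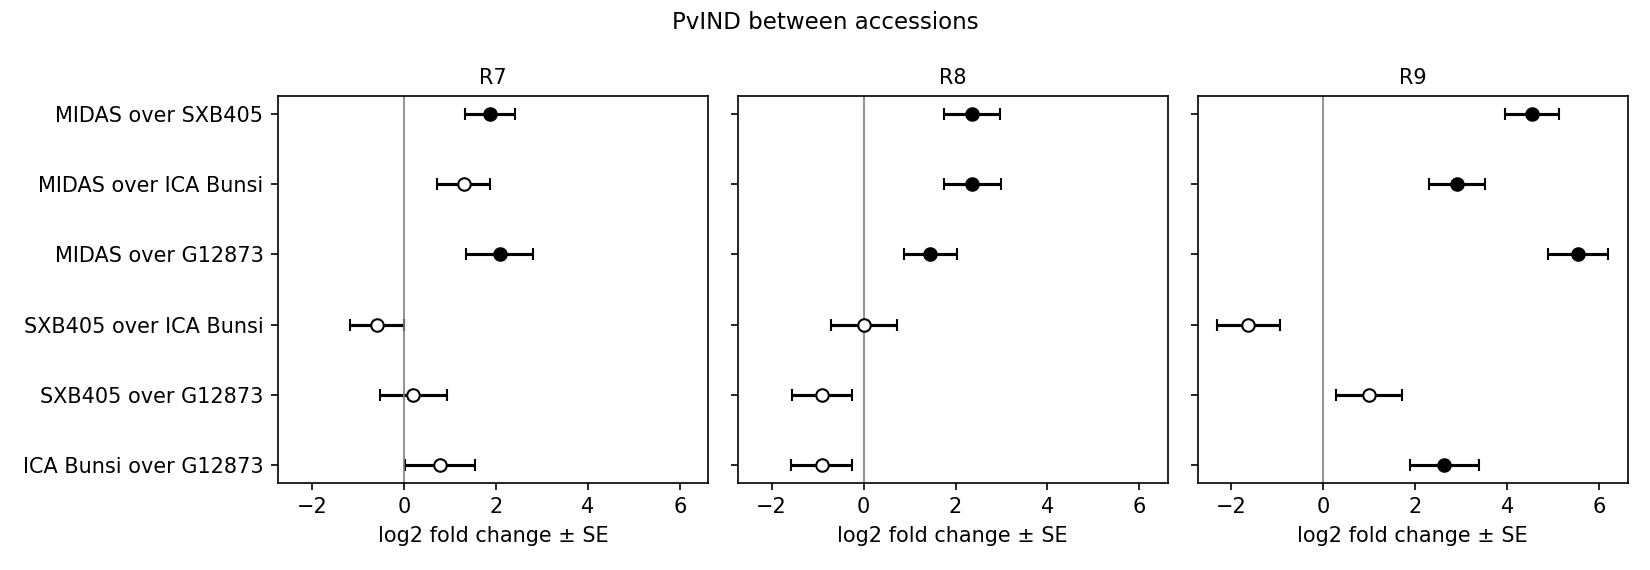
Log2 fold change of PvIND (horizontal axes) for each of the 6 accession pairs (rows) at R7, R8 and R9 (panels), with the first-named accession over the second. Whiskers are standard errors of the edgeR fit and filled points are pairs called at an adjusted p under 0.05 and at least 2-fold. The values of MIDAS over the others at R9 are 4.54, 2.91 and 5.54, and 1 of the 9 points without MIDAS is filled, that of ICA Bunsi over G12873 at R9.

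MIDAS was higher than each of the other 3 accessions at the same stage for 763 genes at R9, or 3.64% of those tested, and PvIND was among them. Of the genes tested, 466 (2.22%) were also called higher at R9 than at R7 within MIDAS, and 417 (1.99%) were in addition called higher at R9 than at R8 within MIDAS. PvIND met these conditions too. Averaged over the 3 stages, MIDAS was higher than SXB405 by 2.92, than ICA Bunsi by 2.19 and than G12873 by 3.03 on the log2 scale (SE 0.33, 0.35 and 0.38). The last value takes in the 13 counts of G12873 R7 replicate 3, and without that library the fitted value, 4.92, is no measured size. In these comparisons 11.3%, 9.25% and 12.5% of genes were called higher, and 4.14% of genes were called higher in all 3.

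Among the pairs without MIDAS, ICA Bunsi was called higher than G12873 at R9, with a log2 fold change of 2.63 (SE 0.75, adjusted p = 0.0184, with 6.04% of genes called higher). The libraries of these groups overlapped, as ICA Bunsi R9 replicate 2 had 0.478 CPM and G12873 R9 replicate 2 had 0.496 CPM. The value was 0.50 (adjusted p = 0.838) without the 8 libraries, with 1 ICA Bunsi R9 library left, and 1.39 (adjusted p = 0.448) without ICA Bunsi R9 replicate 1, and the call was also lost without ICA Bunsi R9 replicate 3 (2.47, adjusted p = 0.0579) or G12873 R9 replicate 1 (2.29, adjusted p = 0.0794). The other 8 pairs had log2 fold changes between -1.63 (SXB405 over ICA Bunsi at R9, SE 0.68, adjusted p = 0.246) and 1.00 (SXB405 over G12873 at R9, SE 0.72, adjusted p = 0.423). Without ICA Bunsi R9 replicate 2 the R9 value of SXB405 over ICA Bunsi passed the test at -2.52 (adjusted p = 0.00627), and against the 1 ICA Bunsi R9 library left without the 8 it was 0.76 (adjusted p = 0.71).

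Over the stages, PvIND rose in MIDAS between R8 and R9. The net change, R9 over R7, was a log2 fold change of 2.51 in MIDAS (SE 0.52, adjusted p = 0.000192), a 5.70-fold rise, with 18% of genes called higher in that comparison. R9 over R8 was 3.11 (SE 0.54, adjusted p = 2.94e-05, with 14.2% of genes called higher), and R8 over R7 was -0.60 (SE 0.53, adjusted p = 0.421). With 1 library left out the net change lay between 2.32 and 2.68 and was called in each case. On total counts without TMM scaling it was 1.89 (adjusted p = 0.0761), in a scaling that put the median log2 fold change of all genes tested at -0.65, while the R9 over R8 value stayed called.

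In the other accessions the net change of PvIND was not called. R9 over R7 was -0.15 in SXB405 (SE 0.59, adjusted p = 0.867), 0.90 in ICA Bunsi (SE 0.67, adjusted p = 0.833) and -0.94 in G12873 (SE 0.82, adjusted p = 0.398) on the log2 scale, and R9 and R7 libraries overlapped in each. The fitted sign in G12873 runs against its mean levels, 0.313 CPM at R9 and 0.258 CPM at R7, since the fit gives the shallow R7 libraries with a count of 0 less weight than replicate 3. Without the 8 libraries the values were 0.16 in SXB405 and -1.0 in ICA Bunsi, the second with 1 R9 library. Without ICA Bunsi R9 replicate 2 that in ICA Bunsi was 1.80 (adjusted p = 0.0245), and without ICA Bunsi R9 replicate 1 it was -0.37. In ICA Bunsi, R9 over R8 was called at 2.57 (SE 0.71, adjusted p = 0.0107, with 7.32% of genes called higher), but was 0.46 (adjusted p = 0.764) without the 8 libraries, again with 1 R9 library, 1.29 (adjusted p = 0.37) without R9 replicate 1 and 2.21 (adjusted p = 0.0642) without R8 replicate 2. R8 over R7 was -1.07 in SXB405 (SE 0.62, adjusted p = 0.197), -1.67 in ICA Bunsi (SE 0.66, adjusted p = 0.0527) and 0.04 in G12873 (SE 0.79, adjusted p = 0.985).

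Whether the net change differed between accessions was tested directly. The test over the 4 accessions passed (adjusted p = 0.0175), as it did for 24.4% of the genes tested. It did not pass on transcripts in place of gene sums (adjusted p = 0.125) or on total counts without TMM scaling (adjusted p = 0.451). The net change of MIDAS exceeded that of SXB405 by 2.66 on the log2 scale (SE 0.78, adjusted p = 0.0225, where 6.31% of genes were called higher) and that of G12873 by 3.45 (SE 0.97, adjusted p = 0.0144, where 7.88% were called higher). Both calls were lost on transcripts (2.65, adjusted p = 0.118, and 3.12, adjusted p = 0.068) and on total counts (2.47, adjusted p = 0.512, and 2.71, adjusted p = 0.237). The difference from ICA Bunsi was 1.61 (SE 0.84, adjusted p = 0.24) and not called. It was 0.71 without ICA Bunsi R9 replicate 2 and 2.88 without replicate 1, not called in either case, and passed at 3.49 (adjusted p = 0.0306) without the 8 libraries, with replicate 2 as the one ICA Bunsi R9 library. That from G12873 rests on the 13 counts of G12873 R7 replicate 3, and without that library it has no measured size. The call against SXB405 was lost without MIDAS R7 replicate 2 (2.47, adjusted p = 0.0524), SXB405 R7 replicate 2 (2.54, adjusted p = 0.0554), SXB405 R9 replicate 1 (2.37, adjusted p = 0.0567) or SXB405 R9 replicate 3 (2.52, adjusted p = 0.0551).

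Other genes known from pod dehiscence were read beside PvIND, as far as they could be named: PvPdh1 (Phvul.003G252100), the bean counterpart of a soybean dirigent-family gene that promotes twisting of the drying pod wall, and PvMYB26 (Phvul.005G157600), counterpart of an Arabidopsis MYB factor of secondary wall thickening. Both were called higher in MIDAS in at least 8 of the 9 pairs with another accession, as PvIND was. PvPdh1 was called in 9 of 9, and none of the 9 pairs of the other accessions was called for it. PvMYB26 was called higher in 8 and lower in 1, the pair with G12873 at R7. In each of the pairs with MIDAS, 8.12% to 15.8% of the genes tested were called higher. The 3 pairs at a stage share the MIDAS libraries, and the share of genes called in 8 or 9 of the pairs is not given here.

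In MIDAS, PvPdh1 had 43.3 ± 7.45 CPM at R7, 82.6 ± 6.87 at R8 and 146.5 ± 38.2 at R9 (SD, n = 3), and the group means of the other accessions lay between 5.35 and 16.1 CPM. Its net log2 fold change was 1.76 in MIDAS (SE 0.33, adjusted p = 6.24e-05), 0.86 in SXB405 (SE 0.34, adjusted p = 0.0377, under 2-fold and so not called), 1.19 in ICA Bunsi (SE 0.37, adjusted p = 0.011, with 15.5% of genes called higher) and 1.37 in G12873 (SE 0.42, adjusted p = 0.0116, with 14.4% called higher). These net changes did not pass the test of a difference between accessions (adjusted p = 0.421). At R9 it was higher in MIDAS than in SXB405 by 3.49, than in ICA Bunsi by 3.19 and than in G12873 by 3.19 on the log2 scale. The net rise in MIDAS was 1.23 (adjusted p = 0.207) on total counts without TMM scaling, and those in ICA Bunsi and G12873 were lost without the 8 libraries (1.07, adjusted p = 0.118, and 1.31, adjusted p = 0.0674).

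PvMYB26 was lower at R9 than at R7 in MIDAS and in the other accessions. Its MIDAS means were 11.5 ± 1.58 CPM at R7, 22.3 ± 3.18 at R8 and 2.58 ± 1.26 at R9, a net log2 fold change of -2.32 (SE 0.47, adjusted p = 0.000136, with 21.8% of genes called lower). The net value was -3.49 in SXB405 (SE 0.67, adjusted p = 8.9e-05, with 18.6% called lower), -1.94 in ICA Bunsi (SE 0.78, adjusted p = 0.047, with 17.2% called lower) and -6.69 in G12873 (SE 0.55, adjusted p = 1.12e-09, with 15.7% called lower). The ICA Bunsi call lay at the threshold and was lost on leaving out ICA Bunsi R9 replicate 2 (-1.09, adjusted p = 0.466), R9 replicate 3 (adjusted p = 0.0775) or any 1 of its 3 R7 libraries (adjusted p = 0.0705 to 0.0788), without the 8 libraries (adjusted p = 0.0908), with limma-voom (adjusted p = 0.0549), with no low-count filter (adjusted p = 0.0528) and on total counts (adjusted p = 0.0599). In G12873 it had 58.6 ± 8.48, 0.536 ± 0.107 and 0.591 ± 0.254 CPM, and the MIDAS over G12873 value at R7 was -2.37 (SE 0.41, adjusted p = 6.55e-05, with 12.7% of genes called lower). On total counts without TMM scaling this R7 value was -1.48 (adjusted p = 0.157) and not called. On deposited TPM the R7 level was 24.4 ± 32.9 in G12873 and 8.61 ± 1.55 in MIDAS. At R9 PvMYB26 had 38 counts in MIDAS, 4 in SXB405, 5 in ICA Bunsi and 13 in G12873, each over 3 libraries. Its R9 log2 fold change of MIDAS was 3.93 over SXB405 (adjusted p = 0.000127), 2.72 over ICA Bunsi (adjusted p = 0.0112) and 2.0 over G12873 (adjusted p = 0.0133). Without the 8 libraries the last 2 were 2.91, with 1 ICA Bunsi R9 library left, and 1.69 (adjusted p = 0.0682). Both calls were lost on only the 6 samples compared (adjusted p = 0.135 and 0.0737) and on total counts (adjusted p = 0.0819 and 0.315). That over ICA Bunsi was lost without ICA Bunsi R9 replicate 2 (adjusted p = 0.214), that over G12873 without G12873 R9 replicate 2 (adjusted p = 0.0835). In MIDAS, the stage with the highest PvIND level was the one with the lowest PvMYB26 level.

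**Figure D4:**
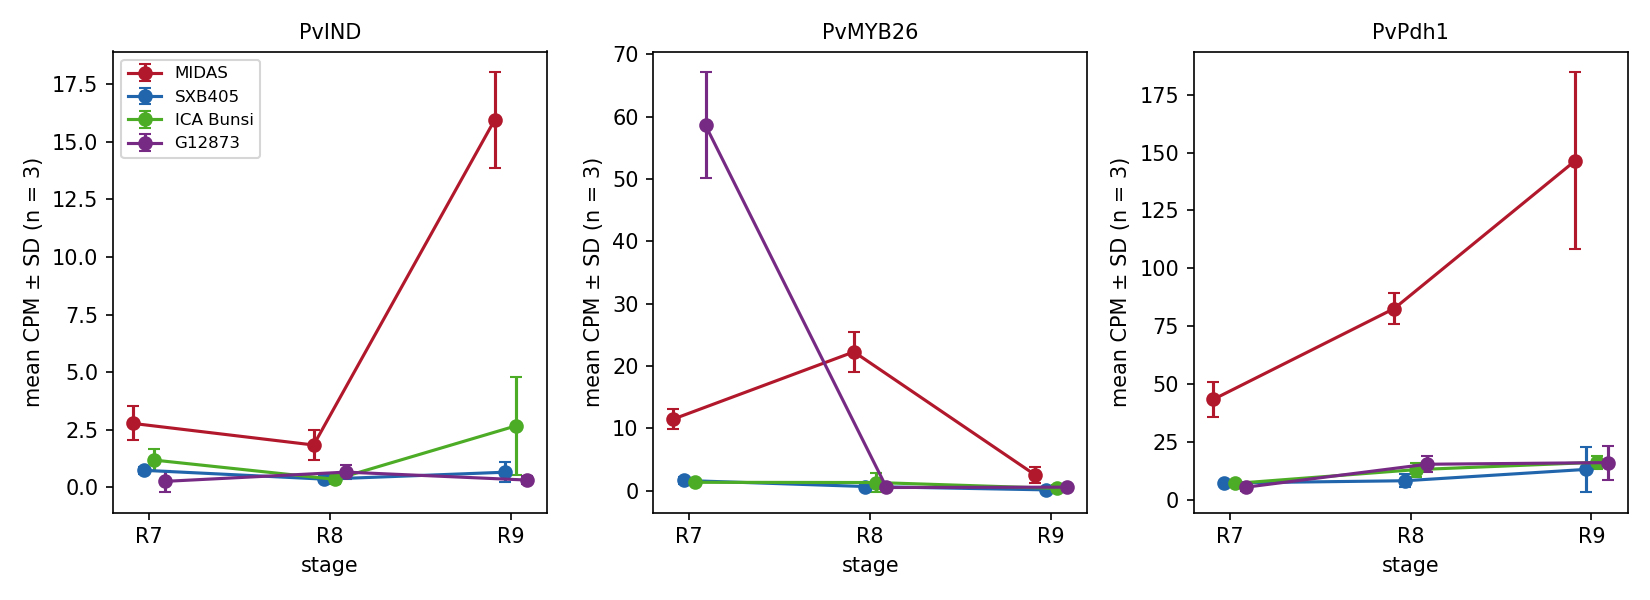
Mean level (vertical axes, TMM-scaled CPM, a separate scale for each gene) of PvIND, PvMYB26 and PvPdh1 at R7, R8 and R9 (horizontal axes) in the 4 accessions. Whiskers are the SD of 3 libraries. At R9 in MIDAS, PvIND is at 15.9 CPM and PvPdh1 at 146.5 CPM, their highest means, and PvMYB26 is at 2.58 CPM, its lowest mean in that accession.

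Genes whose levels followed PvIND over the 36 libraries were ranked by Spearman's rho of log2 CPM (prior count 2), among the 18846 genes with a mean of at least 1 CPM. The points share library, depth and scaling, with 3 libraries to a group, so these values describe the libraries and no p is given. The same holds for the fold changes of the genes picked by this ranking. The highest was 0.842 and the lowest -0.869, and 93 genes lay over 0.7 and 68 under -0.7. The median over all ranked genes was 0.03. Since no name is paired with these identifiers, only 2 genes at each end are given, and nothing is said of their function.

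Phvul.008G290300 had the highest rho, 0.842 (Pearson's r = 0.765), and r = 0.749 without MIDAS R9 replicates 1 and 3, the 2 libraries farthest from the median of PvIND. Its MIDAS levels were 8.36 ± 0.652 CPM at R7, 9.88 ± 2.80 at R8 and 14.6 ± 5.16 at R9 (SD, n = 3). Its log2 fold change of MIDAS at R9 was 3.15 over SXB405, 1.40 over ICA Bunsi and 1.92 over G12873. Its net log2 fold change in MIDAS was 0.76, where that of PvIND was 2.51.

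Phvul.011G181100 came next with a rho of 0.838 (r = 0.802, and 0.796 without the same libraries). Its MIDAS levels were 41.5 ± 5.63 CPM at R7, 16.6 ± 3.12 at R8 and 37.6 ± 8.40 at R9, with a log2 fold change of 1.16 for R9 over R8 and of -0.16 for R9 over R7. By mean CPM the lowest of its 3 stages in MIDAS was R8, as it was for PvIND. Its log2 fold change of R8 over R7 was -1.32, while that of PvIND was -0.60 and not called, with overlapping libraries. At R9 the log2 fold change of MIDAS for Phvul.011G181100 was 1.74 over SXB405, 0.36 over ICA Bunsi and 1.37 over G12873.

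At the other end, Phvul.L004043 had a rho of -0.869 (r = -0.884), with 52.7 ± 7.99 CPM at R7, 77.0 ± 7.24 at R8 and 28.9 ± 6.10 at R9 in MIDAS, against 438 ± 121, 220.8 ± 61.0 and 173 ± 10.3 CPM in G12873. At R9 its log2 fold change of MIDAS was -2.74 over SXB405, -2.11 over ICA Bunsi and -2.57 over G12873. Phvul.006G077500 had a rho of -0.854 (r = -0.814), and its log2 fold changes of MIDAS at R9 were -0.93 over SXB405, -0.53 over ICA Bunsi and -0.90 over G12873. On the deposited TPM scale the rho of these 2 genes was -0.212 and 0.145, while those of Phvul.008G290300 and Phvul.011G181100 were both 0.791.

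Within groups and within parts of the series the values of these 4 genes lay closer to 0. After the group means were removed, r was 0.648 for Phvul.008G290300, 0.601 for Phvul.011G181100, -0.422 for Phvul.L004043 and -0.318 for Phvul.006G077500 over the 36 libraries. Over the 9 MIDAS libraries alone rho was 0.467, 0.567, -0.80 and -0.65 for the same genes, and over the 27 other libraries 0.72, 0.74, -0.732 and -0.717. PvPdh1 ranked 250 with a rho of 0.632, which was 0.45 over the 9 MIDAS libraries and 0.227 over the 27 other libraries. PvMYB26 ranked 4500 with 0.245, which was -0.85 over the 9 MIDAS libraries and -0.11 over the 27 other libraries. Without the 8 libraries rich in the abundant set, rho was 0.541 for PvPdh1 and 0.515 for PvMYB26.

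These genes were ranked on the libraries that the comparisons use, so their counts are a description and were not tested. Of the 50 genes with the highest rho, 15 were higher in MIDAS than in each other accession at R9, against 689 of all 18846 ranked genes. For R9 over R7 in MIDAS, 3 of the 50 were called higher, against 3561 of the 18846. Both conditions were met by 3 of the 50, against 431 of the 18846. The median net log2 fold change in MIDAS was 0.10 over the 50 genes and -0.01 over all ranked genes. Over the 50 genes with the lowest rho this median was 0.23. Of these, 14 were lower in MIDAS than in each other accession at R9, against 557 of all 18846 ranked genes. Called lower for R9 over R7 in MIDAS were 2 of these 50, against 3934 of the 18846.

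**Figure D5:**
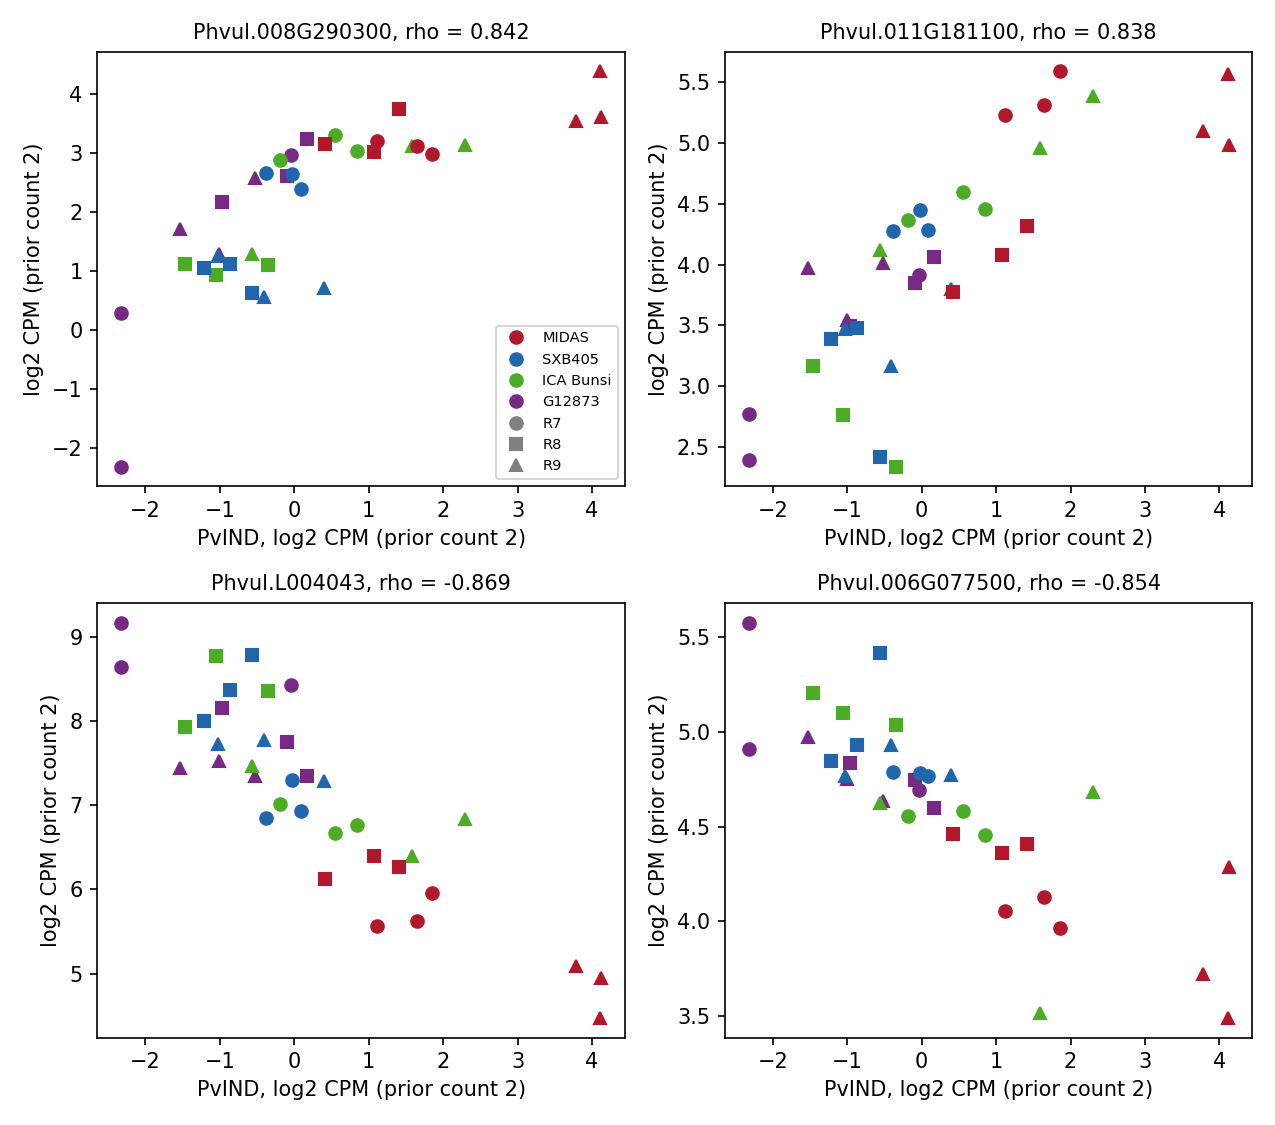
Level of the 2 genes with the highest and the 2 with the lowest Spearman's rho (vertical axes, log2 CPM) against that of PvIND (horizontal axes, log2 CPM), 1 point per library, with colours for accessions and shapes for stages. In the upper panels MIDAS R9 lies to the right of the other libraries while its height overlaps theirs. In the lower panels the MIDAS libraries lie towards the low end, where their height overlaps that of ICA Bunsi R9 replicate 3.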

How the data were processed

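Pod RNA of 36 libraries was sequenced. Per the submitters' processing notes, kallisto, limma and edgeR were used. The deposited tables give, for each of 36995 transcripts, an estimated count, a TPM value (length-normalised share of all transcripts) and an effective length, as made by the authors. Index build, annotation, strand and trimming: not given in the sources used here. Identifiers matched 0 of 34165 genes in the reference table, so no names, coordinates or sequences were taken from it.

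Estimated counts were summed over transcripts into 27433 genes, rounded, and tested with edgeR 4.0.16 (R 4.3.3), the quasi-likelihood F-test with robust fitting and TMM scaling on 36 libraries in 12 groups. The filter (minimum count 10, minimum total 15) kept 20966 genes, PvIND included, and removed 6467. P-values were adjusted by Benjamini-Hochberg over all genes tested, and a call needs an adjusted p under 0.05 together with a size of 1 or more on the log2 scale. edgeR bounds the p of low-count genes by a Poisson test, so a p can be larger than its SE implies. CPM are TMM-scaled, and the SE is taken from the F statistic.

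The fit was also run on simulated data, and the outcome of that run is not reported here. Same-numbered libraries of different groups deviated from their group means with a median correlation of -0.011 (33 of 198 pairs over 0.1), so the replicate number was not used to pair libraries. No 2 libraries of a group were alike within sampling noise (lowest chi-square per degree of freedom 5.98). The precision is set by depth: 1 CPM is 0.301 to 23.0 counts of a library.

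The gene, the lists of other genes and the tests were chosen with earlier results of these data known. Genes named are PvIND, PvPdh1 and PvMYB26 and, by rank of Spearman's rho with PvIND, 2 at each end. Alternatives tried were limma-voom (limma 3.58.1), DESeq2 1.42.0, scaling by RLE, a fit with no filter, calls by adjusted p alone, a fit on transcripts, a fit with an effective length offset, removal of the 50 most abundant genes, of the 8 libraries or of each library in turn, the replicate block, and a fit on only the 6 samples of a pair. Total counts without TMM scaling and the pairwise differences of net change were added after seeing the data. Other homologues of dehiscence genes and markers of seed or pod wall were not analysed here, since no table names them.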

Additional observations from a re-analysis of the deposited data

Results flagged for a closer look

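The net change of PvIND between R7 and R9 passed a test of its difference between accessions, but not under every setting. The test over all 4 accessions gave an adjusted p of 0.0175 (edgeR, Benjamini-Hochberg), against 0.125 on transcripts in place of gene sums and 0.451 on total counts without TMM scaling. The net log2 fold change of MIDAS exceeded that of SXB405 by 2.66 and that of G12873 by 3.45. Both differences lost their call under the same settings, and that from SXB405 also on leaving out any 1 of 4 libraries. The 3 R9 libraries of MIDAS lay above its 3 R7 libraries on the CPM scale, and in SXB405 and G12873 the R9 and R7 libraries overlapped. On deposited TPM, MIDAS R9 replicate 1 (2.98 TPM) fell within the range of the MIDAS R7 libraries (2.06 to 3.06 TPM). For R9 over R7 in MIDAS, 18% of genes were called higher and 21.8% lower. The share of all genes without overlap is not given here. The value against G12873 rests on 13 counts in 1 of its 3 R7 libraries, the other 2 having none. Groups of 3 libraries are too small for a check of single outlying libraries.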

How the results depend on the processing

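Of 464 values of PvIND under other settings, 419 kept their direction and their side of the threshold, and of 372 with 1 library left out, 335 did. The 464 include calls by adjusted p alone, which use the reported fit and so kept their direction by construction. Values not called in either fit are counted as kept where the direction stayed the same. The 3 calls of MIDAS over the other accessions at R9, the R9 over R8 call in MIDAS and the calls averaged over the stages held throughout. The cause of the changes below was not tested, other than what a smaller set of libraries or genes implies by its construction. Log2 fold changes are given. PvIND is limited by its depth, with at most 19 counts in a library outside MIDAS.

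On total counts without TMM scaling, the values no longer called were 1.69 (MIDAS over SXB405 at R7), 2.20, 2.25 and 1.29 (MIDAS over SXB405, ICA Bunsi and G12873 at R8), 1.72 (ICA Bunsi over G12873 at R9), 1.89 (R9 over R7 in MIDAS), 1.45 (R9 over R8 in ICA Bunsi), and 2.47 and 2.71 (net change of MIDAS minus that of SXB405 and of G12873), the test over the accessions gave an adjusted p of 0.451, and R9 over R7 in ICA Bunsi turned to -0.14. That scaling put the median log2 fold change of all genes tested between -1.15 (net change of MIDAS minus that of G12873) and 1.09 (SXB405 over G12873 at R7), against -0.15 and 0.14 for the same comparisons with TMM scaling. Without the 8 libraries, which leaves 1 library in ICA Bunsi R9 and 1 in G12873 R7, calls were lost at 1.81 (MIDAS over G12873 at R7), 0.50 (ICA Bunsi over G12873 at R9) and 0.46 (R9 over R8 in ICA Bunsi) and gained at 1.48 (MIDAS over ICA Bunsi at R7) and 3.49 (net change of MIDAS minus that of ICA Bunsi). Uncalled values turned to -0.06 (SXB405 over G12873 at R7), 0.76 (SXB405 over ICA Bunsi at R9), -0.04 (ICA Bunsi over G12873 over the stages), 0.13 (SXB405 over ICA Bunsi over the stages), 0.16 and -1.0 (R9 over R7 in SXB405 and ICA Bunsi) and -0.19 (R8 over R7 in G12873).

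With transcripts in place of gene sums, calls were lost at 1.87 (MIDAS over SXB405 at R7), 1.47 (MIDAS over G12873 at R8), and 2.65 and 3.12 (net change of MIDAS minus that of SXB405 and of G12873), and the test over the accessions gave 0.125. With no low-count filter and with DESeq2, MIDAS over G12873 at R8 was not called at 1.46 and 1.49. On only the 6 samples compared, MIDAS over G12873 at R7 was lost at 1.99 and MIDAS over ICA Bunsi at R7 gained at 1.27, and 15 of 30 such comparisons gave no value. With limma-voom, ICA Bunsi over G12873 at R9 was lost at 1.81 and R9 over R8 in ICA Bunsi at 1.87, while R8 over R7 in ICA Bunsi (-1.71) and the net change of MIDAS minus that of ICA Bunsi (2.33) were gained. R8 over R7 in ICA Bunsi was also gained with RLE size factors, at -1.71. Values near 0 changed sign: SXB405 over ICA Bunsi at R8 to -0.03 with RLE size factors and with DESeq2, SXB405 over G12873 to -0.13 at R7 and -0.03 over the stages with limma-voom, and R8 over R7 in G12873 to -0.35 with limma-voom and -0.03 with DESeq2.

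With the replicate block, MIDAS over G12873 at R8 was lost at 1.40 (adjusted p = 0.0588) and R8 over R7 in G12873 turned to -0.01. No other call changed, and 9 of the 36 libraries correlated best with their own number.

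With 1 library left out, the values of results that changed ranged from 1.88 to 7.77 (MIDAS over G12873 at R7), -0.02 to 5.90 (SXB405 over G12873 at R7), 1.11 to 1.74 (MIDAS over G12873 at R8), 2.02 to 2.98 (MIDAS over ICA Bunsi at R8), -0.33 to 0.63 (SXB405 over ICA Bunsi at R8), 1.39 to 3.52 (ICA Bunsi over G12873 at R9), -2.52 to -0.40 (SXB405 over ICA Bunsi at R9), -0.09 to 2.0, 0.42 to 2.72 and -1.03 to -0.32 over the stages (SXB405 over G12873, ICA Bunsi over G12873 and SXB405 over ICA Bunsi), -0.73 to 0.15, -0.37 to 1.80 and -1.49 to 4.75 (R9 over R7 in SXB405, ICA Bunsi and G12873), -2.28 to -1.32 and -0.22 to 5.72 (R8 over R7 in ICA Bunsi and G12873), 1.29 to 3.46 (R9 over R8 in ICA Bunsi), and 2.37 to 3.24 and -2.24 to 4.0 (net change of MIDAS minus that of SXB405 and of G12873). Uncalled throughout, the net change of MIDAS minus that of ICA Bunsi ranged from 0.71 to 2.88, and MIDAS over G12873 over the stages, called throughout, from 2.91 to 4.92. The values 7.77, 5.90, 2.0, 2.72, 4.92, 4.75, 5.72 and -2.24 come from leaving out G12873 R7 replicate 3, which leaves that group with no count, and are not measured sizes. On TPM the rho of Phvul.006G077500 with PvIND turned to 0.145.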

Other observations

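The effective length that the authors' counting gave PvIND was 1336 to 1382 bases in 4 libraries (MIDAS R9 replicate 1, ICA Bunsi R7 replicate 3 and ICA Bunsi R9 replicates 1 and 3) and 1242 to 1272 bases in the other 32. In those 4 libraries the abundant set took 62.0% to 72.9% of counts, and 25.9% to 41.0% of all transcripts had an effective length above their annotated length. In G12873 R7 replicate 1 that share was 54.7%, although PvIND had an effective length within the range of the 32.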
